A study of Mus musculus with 16 samples.

Results

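Transcripts of B lymphocytes and of the class II major histocompatibility complex (MHC) were followed in cells sorted from mouse olfactory mucosa. The rule named 9 genes, and a gene was included where a probe set of the array carried its symbol. This gave 8 genes with 1 probe set each, among 19572 probe sets with a symbol. They were the B cell genes Cd79a, Cd79b, Ms4a1, Pax5 and Vpreb3 and the class II genes H2-Aa, H2-Ab1 and H2-Eb1. Cd74 was not analysed here.

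All animals were S100a5-tauGFP mice, in which a fluorescent reporter joined to tau marks cells that express S100a5, whose protein binds calcium and whose transcript rises in olfactory neurons with activity. The 24 mice, of both sexes and 7 to 12 weeks of age, were held singly in chambers for 40 h at an air flow of 3.1 L/min. From 26 h onward they were given 10 s pulses every 20 min, of filtered air for the vehicle groups and of 100% citrus accord for the odorant groups. The mucosa was then dissociated and sorted into GFP+ and GFP- cells, and cells of 3 mice made up each sample. Clariom S arrays measured 4 groups of 4 arrays: vehicle GFP-, vehicle GFP+, citrus GFP- and citrus GFP+. The labels name no marker for the GFP- gate, which holds every cell without the reporter, so these cells are a mixture and neither gate was sorted for lymphocytes.

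B lymphocytes recognise antigen through a surface immunoglobulin that signals through a pair of partner proteins, CD79A and CD79B. The transcription factor PAX5 holds cells in the B lineage. MHC class II molecules are pairs of an alpha and a beta chain that show peptides from engulfed material to helper T cells. B cells, dendritic cells and macrophages are among the cells that can make them. Olfactory mucosa holds resident macrophages, dendritic cells and lymphocytes beside its neurons and epithelium.

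The promoters of class II genes share an arrangement that links them to their common coactivator CIITA. It is an X box, bound by RFX proteins, followed by a Y box, bound by NF-Y. Promoters of 2 of the 3 class II genes were in the RefSeq table (GRCm38.p6), along with 3 of the 5 B cell genes, and were searched over the 150 bases before the annotated start. The letters searched on both strands were GCAAC within the X box and TGATTGG across the Y box, which do not overlap each other. They were chosen after these promoters had been read. The windows of H2-Aa, H2-Eb1 and the related chain gene H2-Oa are shown because both letter groups recur in them at nearly the same distance. That of Vpreb3 is shown because it holds the octamer ATTTGCAT, a site of POU factors that is known from immunoglobulin promoters. Capitals mark the matches, and each line runs 5′ to 3′ on the gene's own strand.
H2-Aa: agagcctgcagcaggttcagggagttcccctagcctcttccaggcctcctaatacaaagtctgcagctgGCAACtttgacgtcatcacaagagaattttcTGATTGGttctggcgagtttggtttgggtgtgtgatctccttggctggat
H2-Eb1: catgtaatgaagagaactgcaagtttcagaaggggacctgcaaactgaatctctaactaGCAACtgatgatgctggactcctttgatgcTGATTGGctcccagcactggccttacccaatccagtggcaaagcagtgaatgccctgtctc
H2-Oa: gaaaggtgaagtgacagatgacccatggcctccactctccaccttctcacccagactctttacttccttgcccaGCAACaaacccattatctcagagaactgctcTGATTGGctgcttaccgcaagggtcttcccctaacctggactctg
Vpreb3: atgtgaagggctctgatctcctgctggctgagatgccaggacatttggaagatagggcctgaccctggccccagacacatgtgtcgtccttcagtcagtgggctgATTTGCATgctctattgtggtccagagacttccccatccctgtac

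These windows lie at chr17:34287824-34287973 (minus strand) for H2-Aa, chr17:34305717-34305866 (plus strand) for H2-Eb1, chr17:34092229-34092378 (plus strand) for H2-Oa and chr10:75948150-75948299 (plus strand) for Vpreb3. In H2-Aa the X box letters began 81 bases and the Y box letters 50 bases before the start, 31 bases apart. In H2-Eb1 they began at 91 and 61 bases, 30 apart, and in H2-Oa at 76 and 45 bases, 31 apart. GCAAC followed by TGATTGG on the same strand at a distance of 15 to 40 bases was found in both class II members with a promoter, and in 3 of 17 genes of the class II machinery, namely H2-Oa, H2-Ob and H2-Eb2. It was found in 0 of 3 B cell members. Among 32851 RefSeq promoter windows of the same length 0.174% held this arrangement, 19.6% held GCAAC and 5.71% TGATTGG. These shares count single windows, while a gene with several windows was counted if any of them matched. Because the letters were chosen after these promoters had been read, the shares are no test of the matches. The octamer lay 45 bases before the start used for Vpreb3 and in 0.998% of all windows. That start lies inside the span listed for the gene, from 75943024 to 75949657 on chromosome 10. A match describes letters and does not show that a factor was bound.

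The gates and the arrays were first checked on genes outside the set. S100a5 was higher in GFP+ cells, with group means of 16.86 and 17.43 against 14.94 and 15.55, and Omp, the marker of mature olfactory neurons, lay between 18.83 and 19.42 on every array. The GFP- cells thus carried abundant neuronal RNA as well. The values are log2 expression. Negative-control probes gave a median of 4.84 to 5.37 per array. Their 95th percentile, 8.75 to 9.71 per array, is called the background level here, and a value under it is not by itself evidence of a transcript. Arrays of the same group correlated at 0.985 to 0.992 across probe sets, and 0 pairs of arrays held identical values.

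The class II transcripts H2-Aa and H2-Ab1 were bright in GFP- cells and under the background level in GFP+ cells. H2-Aa, the alpha chain of the I-A molecule, read 10.50, 11.86, 11.98 and 11.72 in vehicle GFP- pools 1 to 4 and 11.16, 11.57, 13.08 and 12.92 in citrus GFP- pools 1 to 4. In GFP+ cells it read 6.20, 6.46, 5.64 and 5.68 with vehicle and 6.55, 6.37, 5.83 and 5.90 with citrus. The groups did not overlap, and the lowest GFP- array stood well above the highest GFP+ array. H2-Ab1, the beta chain that pairs with it, ran almost in parallel, at 10.61, 11.80, 11.96 and 11.59 in vehicle GFP- and at 11.36, 11.61, 13.06 and 12.88 in citrus GFP- pools. Its GFP+ values were 6.43, 6.45, 6.05 and 6.60 with vehicle and 6.82, 7.08, 7.09 and 6.62 with citrus. Both I-A chains exceeded the background level on 8 of 8 GFP- arrays and on 0 of 8 GFP+ arrays.

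H2-Eb1, the beta chain of the I-E molecule, read 8.26, 8.76, 9.66 and 9.42 in vehicle GFP- pools and 8.63, 8.20, 10.80 and 10.47 in citrus GFP- pools. In GFP+ cells it read 4.85, 4.85, 5.69 and 4.79 with vehicle and 4.43, 4.16, 5.18 and 3.74 with citrus. No GFP+ array reached the lowest GFP- array. The gene passed the background level on 4 of 8 GFP- arrays.

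Among the B cell transcripts, Cd79a of the receptor's signalling pair read 8.01, 10.61, 9.002 and 10.32 in vehicle GFP- and 7.23, 8.71, 10.58 and 11.39 in citrus GFP- pools 1 to 4. All 8 GFP+ arrays lay between 4.22 and 5.15. Citrus GFP- pool 1 was the lowest and citrus GFP- pool 4 the highest of the GFP- arrays. Cd79b followed at 6.56, 8.04, 7.28 and 8.26 in vehicle GFP- and 5.68, 7.10, 8.06 and 8.96 in citrus GFP- pools, against 3.47 to 4.81 in GFP+ cells. Cd79a exceeded the background level on 4 of 8 GFP- arrays and Cd79b on 0 of 8, although Cd79b lay above the negative-control median on 8 of 8.

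The other B cell genes were under the background level in either gate. Vpreb3, a gene of developing B cells, ranged from 4.91 to 8.24 in GFP- and from 3.16 to 4.62 in GFP+ arrays. Pax5 ranged from 4.32 to 6.43 and from 3.30 to 4.06. Ms4a1, which encodes the mature B cell surface protein CD20, ranged from 4.77 to 6.46 and from 3.09 to 4.25. None of these 3 genes exceeded the background level on any array. Their GFP+ arrays lay under the negative-control median throughout, while 8 of 8 GFP- arrays for Vpreb3, 5 of 8 for Pax5 and 5 of 8 for Ms4a1 lay above it.

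**Figure D1:**
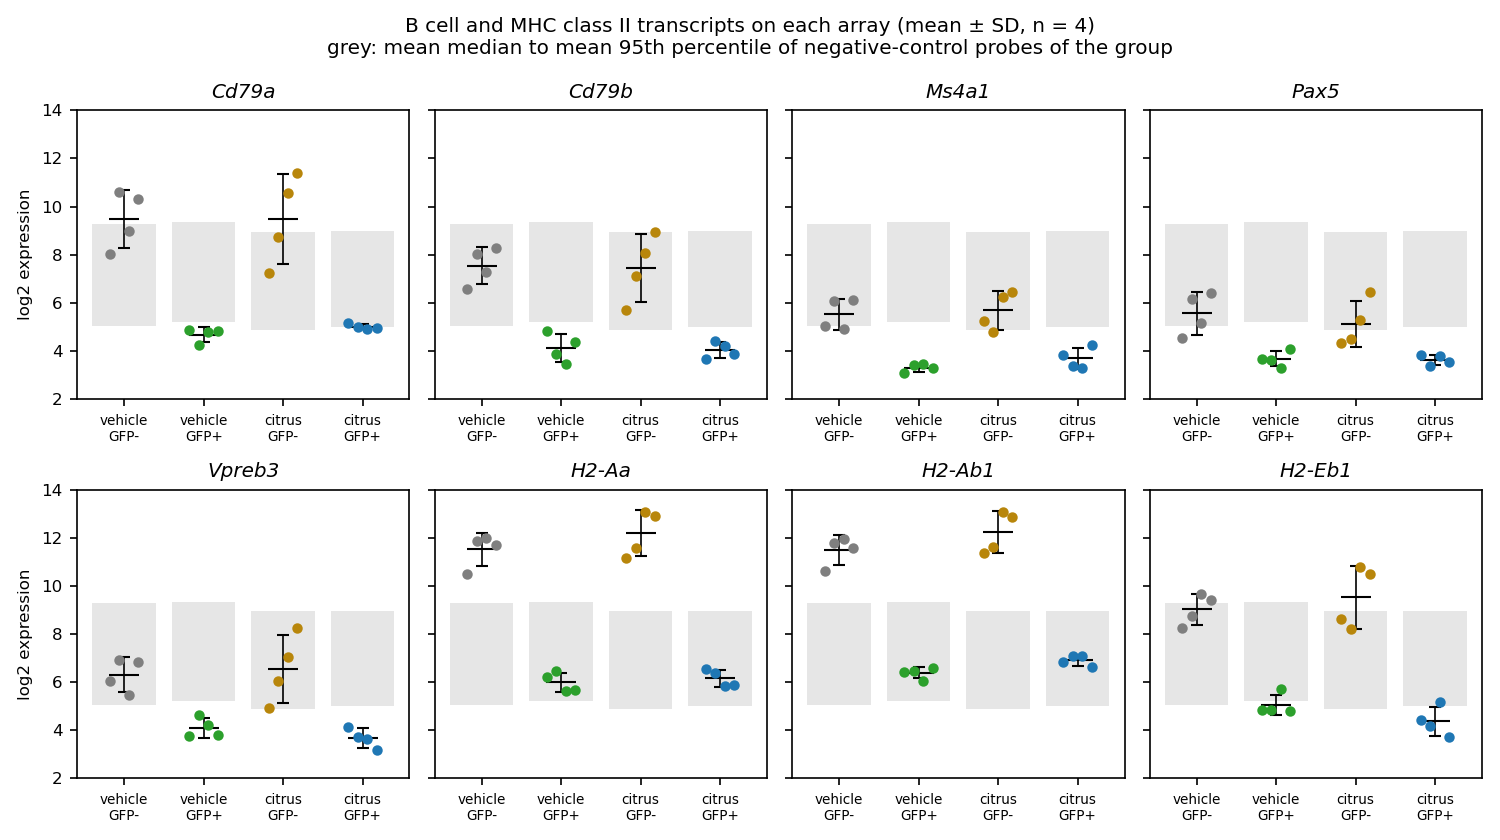
Log2 expression of the 8 genes (vertical axis) on each of the 16 arrays by group, with the mean and SD of 4 arrays as a bar and the span from the median to the 95th percentile of negative-control probes in grey. GFP- points lie above GFP+ points in every panel, and only H2-Aa and H2-Ab1 lie above the grey span on every GFP- array.

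The first comparison asked what the reporter gate separates without odorant. All 8 genes were lower in GFP+ cells in vehicle by limma with Benjamini-Hochberg adjustment over all probe sets, where 9.97% of all 19572 probe sets were called lower and 9.05% higher. The members' median difference was -3.69 against 0.11 for all probe sets. Among class II genes the difference was -5.52 ± 0.40 (SE) for H2-Aa (limma adjusted p = 1.6e-08), -5.10 ± 0.35 for H2-Ab1 (7.9e-09) and -3.98 ± 0.49 for H2-Eb1 (1.1e-05). Among B cell genes it was -4.81 ± 0.68 for Cd79a (limma adjusted p = 4.4e-05), -3.41 ± 0.53 for Cd79b (0.00012), -2.23 ± 0.51 for Vpreb3 (0.0046), -2.22 ± 0.35 for Ms4a1 (0.00017) and -1.90 ± 0.42 for Pax5 (0.0032). Each of the 8 genes was lower in GFP+ cells in 4 of 4 vehicle pools. Vpreb3 did not pass without vehicle replicate 4 (at -1.95, limma adjusted p = 0.052, the highest of its 12 alternatives, the lowest being 0.00052). In these bulk samples, fewer cells of a type and less RNA per cell cannot be told apart.

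The same comparison was then made after citrus. Again all 8 genes were lower in GFP+ cells by limma, where 10.8% of all probe sets were called lower and 7.44% higher, and their median difference was -3.95 against 0.13 for all probe sets. The difference was -6.02 ± 0.40 for H2-Aa (limma adjusted p = 5.1e-09), -5.33 ± 0.35 for H2-Ab1 (4.1e-09) and -5.15 ± 0.49 for H2-Eb1 (4.5e-07). For the B cell genes it was -4.48 ± 0.68 for Cd79a (limma adjusted p = 8.0e-05), -3.41 ± 0.53 for Cd79b (0.00010), -2.88 ± 0.51 for Vpreb3 (0.00042), -1.997 ± 0.35 for Ms4a1 (0.00041) and -1.502 ± 0.42 for Pax5 (0.016). Each was lower in 4 of 4 citrus pools. Pax5 did not pass without citrus replicate 3 (at -1.51, limma adjusted p = 0.062) or without citrus replicate 4 (0.12, at -1.04), and its 12 alternatives ranged from 0.0052 to 0.12. In every one of the 8 genes the highest GFP+ array lay below the lowest GFP- array over both stimuli, as it did for 7.07% of all probe sets.

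**Figure D2:**
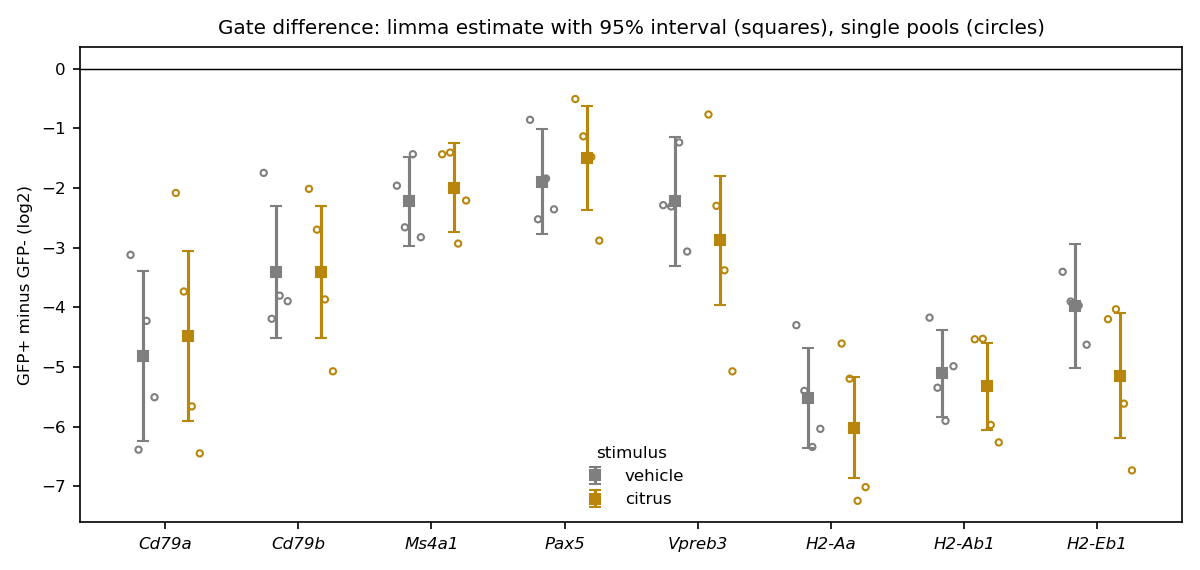
GFP+ minus GFP- difference in log2 expression (vertical axis) for each gene in vehicle (grey) and citrus (gold), with the limma estimate and its 95% interval as squares and bars and the 4 single pools as circles. Every circle lies below 0, and the pools spread most for Cd79a, from -2.08 to -6.45 in citrus.

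GFP+ signals of all 8 genes lay under the background level. With each GFP+ value raised to that level of its own array, H2-Aa was at least 4.49-fold higher in GFP- cells in vehicle and at least 9.30-fold in citrus, and H2-Ab1 at least 4.41-fold and 9.62-fold. With a pool left out these bounds fell as low as 4.13-fold and 7.20-fold for H2-Aa, and 4.09-fold and 7.55-fold for H2-Ab1. All bounds given here hold on the deposited log2 scale, which the processing can stretch, so folds of RNA may be smaller. For Cd79a the bound was at least 1.10-fold in vehicle and 1.43-fold in citrus, with 2 of 4 GFP- arrays above the background level in each. It was lost without vehicle pool 2 or 4 and without citrus pool 4, and was 2.35-fold without citrus pool 1. H2-Eb1 had a bound of at least 1.47-fold in citrus, also with 2 of 4 GFP- arrays above that level, which ranged from 1.05-fold without citrus pool 3 to 2.00-fold without citrus pool 2. It had no bound above 1 in vehicle. For Cd79b, Ms4a1, Pax5 and Vpreb3 both gates lay under that level on every array, so no bound can be given. The direction did not depend on how arrays were scaled. All 8 genes were called lower in either stimulus when each array was centred on its median or on mature neuron genes, or with quantile normalization, although such centring changed the split over all probe sets. In vehicle that split was 1771 higher and 1952 lower as deposited, 7080 and 1555 with the median centred, 2371 and 1861 with quantile normalization, and 505 and 3411 with mature neuron genes centred. In citrus it was 1457 and 2112, then 9128 and 1711, 2340 and 1984, and 510 and 3908. The median difference over all probe sets in vehicle was 0.39 with the median centred and -0.22 with mature neuron genes centred, and in citrus 0.46 and -0.26.

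Other genes of the B lineage were then counted from lists chosen with earlier results of the series known. Counts of these and all later lists stand beside the shares of all probe sets. Those were 9.97% lower and 9.05% higher in vehicle, and 10.8% lower and 7.44% higher in citrus. Of 18 other B cell identity genes measured, 13 were lower and 0 higher in GFP+ cells in vehicle, and 12 and 0 in citrus, with medians of -1.44 and -1.59. The genes named from each list are those with the largest differences. Of the 40 so chosen from the B cell, class I, class II and other immune lists, 36 were above the background level on 0 of 8 GFP+ arrays and 18 on no array of either gate, so their exact sizes depend on signals under that level. Cd37, a tetraspanin of B cells and other leukocytes, was at -7.46 ± 0.55 in vehicle (limma adjusted p = 2.4e-08) and -7.52 ± 0.55 in citrus. Spib, an ETS transcription factor of B cells and plasmacytoid dendritic cells, was at -4.10 ± 0.45 and -4.16 ± 0.45. Cd72, a coreceptor that restrains B cell signalling, was at -2.64 ± 0.50 and -3.38 ± 0.50, and Tnfrsf13c, the receptor for the survival factor BAFF, at -2.47 ± 0.44 and -2.31 ± 0.44. Cd37 was above the background level on 8 of 8 GFP- arrays, Spib on 1, Cd72 on 2 and Tnfrsf13c on 2. Other genes of the list, named after their values were seen, did not pass in either stimulus. The early B cell factor Ebf1 was at 0.03 and 0.24, the complement receptor Cr2 at 0.27 and -0.11, the low-affinity IgE receptor Fcer2a at 0.03 and -0.17, and Ralgps2 at -0.05 and -0.12.

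Genes of the signalling chain below the receptor were likewise lower. Of 14 measured genes 11 were lower and 0 higher in GFP+ cells in either stimulus, with medians of -2.68 and -2.93. Prkcb, a protein kinase C of the pathway to NF-kappaB, was at -4.93 ± 0.46 in vehicle and -5.12 ± 0.46 in citrus. Inpp5d, the lipid phosphatase SHIP, was at -4.39 ± 0.44 and -4.30 ± 0.44, Vav1, a guanine nucleotide exchange factor, at -4.31 ± 0.30 and -4.47 ± 0.30, and Plcg2, a phospholipase, at -2.85 ± 0.29 and -3.48 ± 0.29. Myeloid cells use these signalling proteins too.

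Genes of the stages before and after the mature B cell were counted next, beside the 9.97% and 10.8% of all probe sets called lower. Among 9 B cell precursor genes, 1 was lower in vehicle and 2 in citrus, with 0 higher. Il7r, the interleukin-7 receptor that T cells also carry, was at -2.90 ± 0.48 and -4.03 ± 0.48. The transcription factor Bach2 was at -0.50 ± 0.23 in vehicle (limma adjusted p = 0.14) and -1.03 ± 0.23 in citrus (0.0032). Lef1 and Dntt did not pass in either stimulus. Nor did 4 further genes of the list, named after their values were seen. Vpreb1 was at 0.31 and -0.14, Vpreb2 at -0.10 and 0.12, Igll1 at -0.16 and -0.21, and Rag2 at -0.35 and 0.30. Of 8 plasma cell genes, 1 was lower in vehicle and 5 in citrus, with 0 higher. Jchain, which joins secreted immunoglobulin multimers, was at -4.62 ± 0.57 and -5.71 ± 0.57, and ranged from 7.82 to 11.57 in GFP- against 3.51 to 4.75 in GFP+ arrays. Sdc1, Mzb1 and Prdm1 passed in citrus at -1.23 ± 0.20, -0.89 ± 0.21 and -0.85 ± 0.26, and were at -0.23, -0.49 and -0.69 in vehicle, where they did not pass. The interaction, which tests that difference, passed for 0 of all 19572 probe sets.

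The machinery that loads and regulates class II molecules was mixed. Of 20 genes, 7 were lower in vehicle and 9 in citrus, with 0 higher, and the medians were -0.22 and -0.35. Those named by size include a pair of endosomal enzymes. Ifi30, a thiol reductase that unfolds antigens, was at -5.57 ± 0.33 and -5.31 ± 0.33, and Ctss, the protease that trims the invariant chain, was at -4.16 ± 0.54 and -4.92 ± 0.54. Marchf1, a ubiquitin ligase that removes class II from the surface, was at -2.92 ± 0.43 and -3.04 ± 0.43. H2-Ob, a chain of the peptide exchange inhibitor found in B cells, was at -2.07 ± 0.56 (limma adjusted p = 0.015) and -2.74 ± 0.56 (0.0017).

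Further genes of that list are named for their roles after their values were seen. H2-Oa, the partner of H2-Ob whose promoter is printed above, was at -1.19 ± 0.27 (limma adjusted p = 0.0043) and -2.20 ± 0.27 (8.2e-06). H2-DMa, of the peptide exchange factor, was at -1.25 ± 0.26 (0.0023) and -1.44 ± 0.26 (0.00056). Of the genes for its partner chain, H2-DMb1 was at -0.22 ± 0.16 (0.41) and -0.68 ± 0.16 (0.0065) by limma, and H2-DMb2 at 0.05 ± 0.19 (0.89) and -0.12 ± 0.19 (0.70). H2-Eb2, a class II beta chain gene with the promoter letters described above, was at -0.68 ± 0.21 (0.034) in vehicle and 0.30 ± 0.21 (0.38) in citrus. Ciita, the coactivator itself, was at -0.48 ± 0.28 (0.26) in vehicle and -0.82 ± 0.28 (0.049) in citrus. The promoter-binding factors Rfx5, Rfxap, Rfxank, Creb1, Nfya, Nfyb and Nfyc, which most cells express, did not pass in either stimulus, with differences between -0.26 and 0.34.

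MHC class I, which nearly all nucleated cells carry, also differed. Of 17 class I presentation genes, 9 were lower in vehicle and 10 in citrus, with 0 higher. B2m, the shared light chain, was at -5.15 ± 0.40 and -5.17 ± 0.40, H2-K1 at -4.64 ± 0.41 and -4.56 ± 0.41, H2-D1 at -4.07 ± 0.44 and -4.67 ± 0.44, and the immunoproteasome subunit Psmb8 at -2.62 ± 0.37 and -3.06 ± 0.37. B2m read 9.27 to 11.36 in GFP+ cells and was above the background level on 7 of 8 GFP+ arrays.

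Markers of other immune cells were measured in the same arrays, because class II genes are not specific to B cells. Of 13 macrophage genes 10 were lower in GFP+ cells in vehicle and 11 in citrus, and the list's mean level ran from 7.82 to 8.51 in vehicle GFP- and 7.67 to 8.93 in citrus GFP- arrays, against 4.98 to 6.19 and 4.66 to 6.31 in GFP+ arrays. Lyz2, the lysozyme of myeloid cells, was at -7.29 ± 0.63 and -8.03 ± 0.63, Fcer1g at -6.21 ± 0.48 and -6.56 ± 0.48, Tyrobp, an adaptor of myeloid receptors, at -4.85 ± 0.38 and -4.95 ± 0.38, and Csf1r, the receptor that sustains macrophages, at -3.30 ± 0.49 and -4.15 ± 0.49. Other macrophage genes, named after their values were seen, differed less. Cd163 at -0.25 and -0.47 and Fcgr1 at -0.23 and -0.61 did not pass in either stimulus. Adgre1, at -1.44 and -1.54, and C1qa, C1qb and C1qc were called lower in both. Of 15 dendritic cell genes 8 were lower in either stimulus, with list means of 5.09 to 5.45 in GFP- and 4.40 to 4.65 in GFP+ arrays, and 0 of the 15 exceeded the background level on any array. Cd209a was at -1.81 ± 0.35 and -2.37 ± 0.35, the costimulators Cd80 at -2.28 ± 0.23 and -1.86 ± 0.23 and Cd86 at -1.05 ± 0.24 and -1.69 ± 0.24, and Bst2 at -1.31 ± 0.22 and -1.71 ± 0.22. Some markers of conventional dendritic cells, named after their values were seen, did not pass in either stimulus. Xcr1 was at 0.40 and 0.14, Clec9a at 0.18 and 0.10, Batf3 at 0.15 and 0.25 and Zbtb46 at -0.03 and 0.34. Flt3, Itgax and Irf8 of the same list, also named after their values were seen, were called lower in both stimuli. They were at -1.06 and -1.32, -1.05 and -1.13, and -0.71 and -1.03. The part of these cell types in the class II result was not tested.

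All 14 neutrophil genes measured were lower in GFP+ cells in either stimulus, with medians of -8.65 and -8.98, and their mean level ran from 12.66 to 14.61 in GFP- and 5.06 to 6.32 in GFP+ arrays. Lcn2, a protein of neutrophil granules that binds iron carriers, was at -10.30 ± 0.54 and -10.54 ± 0.54. T and natural killer cell genes were dim, with 0 of 14 above the background level on any array, and 6 were lower in vehicle and 10 in citrus. Cd3e was at -1.74 ± 0.31 and -1.36 ± 0.31 and Il2rb at -1.89 ± 0.43 and -2.33 ± 0.43, with Klrb1c at -1.43 ± 0.34 and -1.62 ± 0.34 and Nkg7 at -1.26 ± 0.33 and -1.61 ± 0.33. Of 3 erythroid genes 2 were lower in either stimulus. Sustentacular genes, of the supporting epithelium, were lower in 2 of 9 in vehicle and 3 of 9 in citrus, beside 9.97% and 10.8% of all probe sets. Mature neuron genes were higher in 4 of 15 and 3 of 15, beside 9.05% and 7.44% of all probe sets, with medians of 0.26 and 0.30. These list counts were made on the values as deposited and not under the other scalings.

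**Figure D3:**
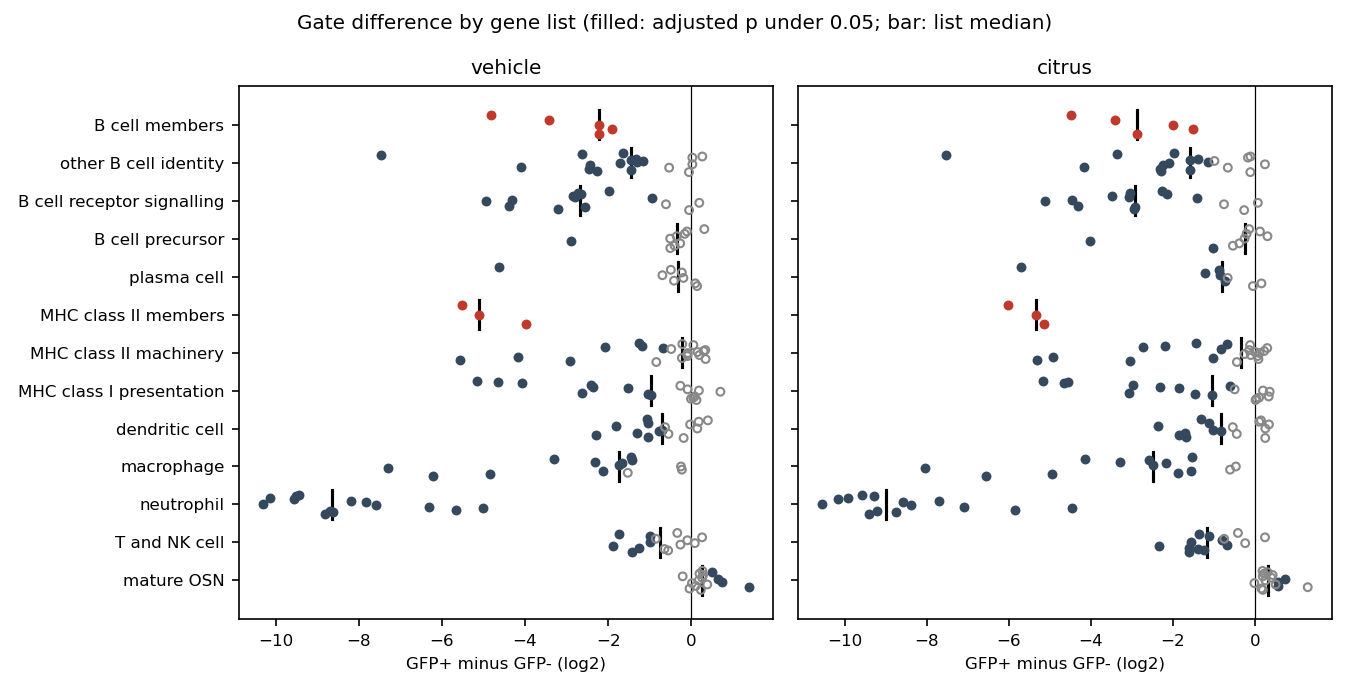
GFP+ minus GFP- difference in log2 expression (horizontal axis) of each gene in 13 lists, in vehicle and in citrus, with genes past the limma threshold filled, the followed genes in red and the list median as a bar. The B cell and class II members lie wholly to the left of 0, as do the macrophage and neutrophil genes. The mature neuron genes lie from -0.21 to 1.38 in vehicle and from -0.02 to 1.28 in citrus.

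The pools differed more in these genes than in most. Within GFP- groups the pooled SD was 1.57 for Cd79a, 1.13 for Cd79b, 1.12 for Vpreb3, 1.02 for H2-Eb1, 0.92 for Pax5, 0.83 for H2-Aa, 0.75 for H2-Ab1 and 0.73 for Ms4a1. The median over all probe sets was 0.29, and between 96.8% and 99.9% of probe sets had a smaller SD than a given member. Within GFP+ groups the members' SD lay between 0.23 and 0.53, against a median of 0.28. A large spread was not particular to the members. The standard error of the gate difference, which rests on both gates, was 0.35 to 0.68 for them. Among genes named after their values were seen, it was 0.99 for Cyp2g1 and 0.85 for Sult1c1, both sustentacular. It was 0.63 for Lyz2 and for the neutrophil gene Elane, and 0.14 for Omp.

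The spread was largely shared among the genes. In citrus GFP- pools 1 and 2 all 8 genes lay below their group mean, and in citrus GFP- pools 3 and 4 all 8 lay above it. In vehicle, 0 of 8 lay above the mean in GFP- pool 1, 7 in pool 2, 3 in pool 3 and 8 in pool 4. Between 47.4% and 52.2% of all probe sets lay above their group mean on a GFP- array. The number of a pool is only a name, and the shared arrays mean that the 8 genes are not 8 separate observations of a pool.

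Vehicle GFP- pool 3 separated the sets. There the 3 class II genes were above their group mean, H2-Aa by 0.46, H2-Ab1 by 0.47 and H2-Eb1 by 0.64, and the 5 B cell genes were below it, Cd79a at -0.48, Cd79b at -0.26, Ms4a1 at -0.63, Pax5 at -0.41 and Vpreb3 at -0.87. In this pool the other B cell identity genes averaged -0.39, neutrophil genes -0.38, receptor signalling genes -0.22, macrophage genes -0.11, plasma cell genes -0.10, B cell precursor genes -0.06 and class II machinery genes -0.02. Class I genes averaged 0.05, mature neuron genes 0.09, T and natural killer cell genes 0.13, dendritic cell genes 0.13, sustentacular genes 0.48 and the 3 erythroid genes 0.62. In the 7 other GFP- arrays the averages of the 5 B cell and the 3 class II genes had the same sign. This pattern was noticed in the data and carries no test.

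Lists of other cells differed between the same pools. In citrus GFP- pool 1, where the B cell members averaged -1.38 and the class II members -0.93, neutrophil genes averaged -1.31, macrophage genes -0.68, sustentacular genes -0.78 and mature neuron genes 0.19. In citrus GFP- pool 4, with B cell members at 1.44 and class II members at 0.78, the same lists averaged 0.46, 0.58, 0.54 and -0.12. In vehicle GFP- pool 1 the B cell members were at -0.85 and the class II members at -0.89, while neutrophil genes were at 0.15, macrophage genes at -0.20 and sustentacular genes at -1.62. The part of these lists in the members' spread was not tested.

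**Figure D4:**
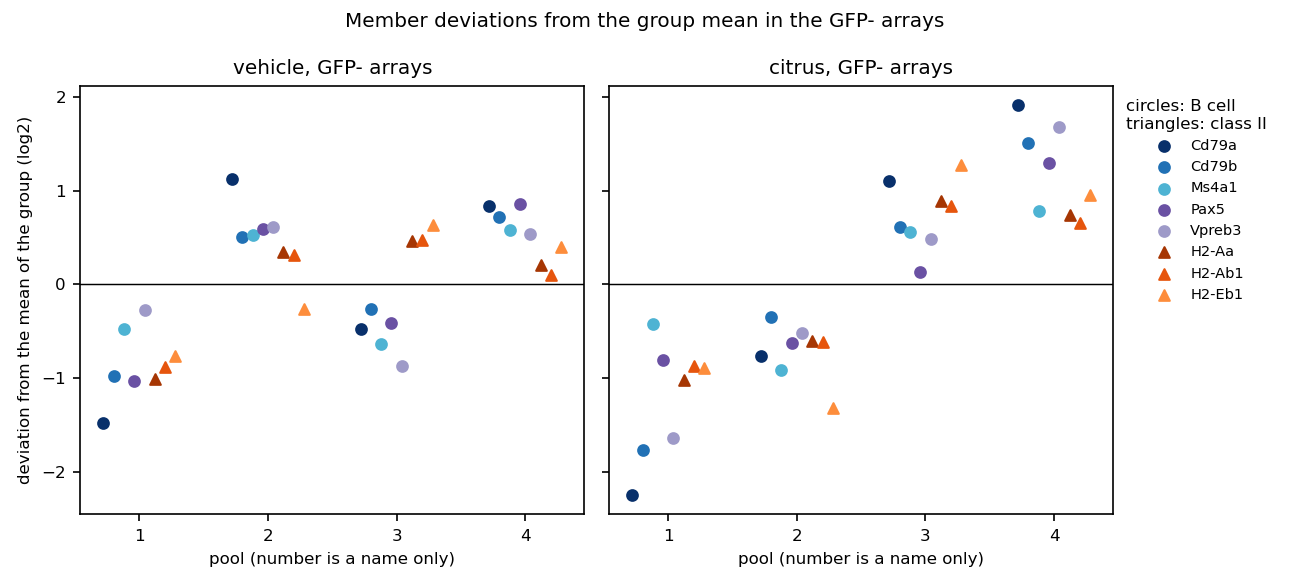
Deviation in log2 of each gene from the mean of its group (vertical axis) in the 4 vehicle and 4 citrus GFP- pools, with B cell genes as circles and class II genes as triangles. Members move together in most pools, and in vehicle pool 3 the triangles lie above 0 and the circles below.

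The next comparison asked whether odorant went with a change in these transcripts. In GFP- cells 0 of 8 genes differed between citrus and vehicle by limma, where 0.0153% of all probe sets passed, and 1 of 8 had an unadjusted p under 0.05, as had 1151 of all probe sets. That gene was H2-Ab1, higher in citrus by 0.74 ± 0.35 with an interval of 0.01 to 1.47 (limma adjusted p = 0.85). H2-Aa was at 0.67 ± 0.40 (-0.17 to 1.51, adjusted p = 0.87 by limma) and H2-Eb1 at 0.50 ± 0.49 (-0.54 to 1.54, 0.91). The B cell genes gave -0.01 ± 0.68 for Cd79a (-1.43 to 1.42), -0.09 ± 0.53 for Cd79b (-1.19 to 1.02), 0.16 ± 0.35 for Ms4a1 (-0.59 to 0.90), -0.43 ± 0.42 for Pax5 (-1.30 to 0.45) and 0.24 ± 0.51 for Vpreb3 (-0.84 to 1.32). For Cd79a and Cd79b a change by more than 1 in either direction lies inside these intervals. For Pax5 a fall by more than 1 does, and for Vpreb3 and the class II genes a rise by more than 1. The citrus and vehicle GFP- arrays overlapped for all 8 genes. The share of all probe sets that overlap in this way was not computed, so nothing particular to these genes can be read from it. The errors rest on 1 spread per gene over both gates, and all 8 genes varied less in GFP+ than in GFP- arrays. For H2-Ab1 the pooled SD was 0.23 in GFP+ and 0.75 in GFP- arrays. From GFP- arrays alone these intervals would be wider, and that of H2-Ab1 already reaches down to 0.01.

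In GFP+ cells 0 of 8 genes differed between citrus and vehicle by limma, where 0.0204% of all probe sets passed, and 0 of 8 had an unadjusted p under 0.05. The differences ran from -0.67 ± 0.49 for H2-Eb1 to 0.52 ± 0.35 for H2-Ab1. For Cd79a and H2-Ab1 all 4 citrus GFP+ arrays lay above all 4 vehicle GFP+ arrays, as they did for 1.47% of all probe sets, and the other 6 genes overlapped. All GFP+ values compared here lay under the background level. Their errors, from the spread over both gates, are larger than GFP+ arrays alone would give.

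The effect of citrus on the gate difference was tested as an interaction. By limma 0 of 8 genes and 0% of all probe sets passed, with 0 of 8 genes and 722 of all probe sets at an unadjusted p under 0.05. The largest estimate was that of H2-Eb1, whose gate difference in citrus minus that in vehicle was -1.17 ± 0.70 (-2.64 to 0.31, limma adjusted p = 0.999). Vpreb3 was at -0.66 ± 0.72, H2-Aa at -0.50 ± 0.56 and Pax5 at 0.39 ± 0.59. The gate differences in vehicle and in citrus, given side by side above, come from separate arrays.

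Genes with the most similar profile were sought over all 16 arrays, as the smallest root mean square difference between mean-centred profiles. Nearest to the mean of the 5 B cell genes were Ifitm1 (0.30), Ablim1 (0.30), Pou2af1 (0.31), Plekha2 (0.32) and Man1a (0.35), with gate differences of -2.44 to -2.86 in vehicle. The members themselves lay between 0.41 for Vpreb3 and Cd79b and 0.96 for Cd79a. Nearest to the mean of the 3 class II genes were Anxa4 (0.41), Ube2c (0.42), 1810046K07Rik (0.44), Alox5ap (0.49) and Pld4 (0.51), with gate differences of -4.70 to -5.16 in vehicle. H2-Ab1 lay at 0.25, H2-Aa at 0.38 and H2-Eb1 at 0.51 from that mean, of which they are part. The measure is set mostly by the size of the gate difference, which all 16 arrays share, and is given as a description.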

How the data were processed

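Each array's deposited values are log2 signals, 1 per probe set, in a table that holds 28846 probe sets on 16 arrays. The submitters' processing notes name Affymetrix Expression Console, and a sample label gives SST-RMA. No version or build is named in the sources used here. SST-RMA can stretch the log2 scale, and arrays give no read depth, so the number of arrays limits precision. Values were used as deposited, and 0 columns of other samples were present. Symbols came from the platform annotation: 19572 probe sets had 1 symbol, 0 several, 2634 none here and 6640 were controls, of which 5222 were negative-control probes. Through Entrez identifiers 19572 matched a current gene table, which changed 0 symbols.

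Differences were fitted with limma 3.58.1 in R 4.3.3, with 4 group means, 1 spread per probe set over 16 arrays, and Benjamini-Hochberg adjustment over all 19572 probe sets at 0.05. Errors beside differences are standard errors, and intervals are 95%. The fit was tested on simulated data. The labels describe separate pools of mice, so p-values measure the spread between pools, taken over both gates together. Arrays of both gates with the same number were taken as the same pool, since 24 mice make 8 pools of 3; after removal of group means they correlated at 0.08 to 0.27 across probe sets, over 0.1 in 6 of 8. Named genes were all members, up to 4 genes of each list by mean size of the gate difference, and the 5 nearest profiles. Where a listed gene had several probe sets, the brightest stood for it. Members and lists were chosen with earlier results of these data known. Alternatives were other scalings, priors, array weights, a filter on dim probe sets, all probe sets, only the groups compared, the pool as a block, and each pool left out.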

Additional observations from a re-analysis of the deposited data

Results flagged for a closer look

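Each of the 8 genes was examined in each of the 4 groups for an array far from the other 3 of its group, 32 groups in all, and chance flags about 1 in 20 such groups. Cd79a was at 4.22 in vehicle GFP+ replicate 2, low against the other 3 arrays of its group. H2-Eb1 was at 5.69 in vehicle GFP+ replicate 3, high against the other 3. Both values lie under the background level of their arrays. Without vehicle replicate 2 the gate difference of Cd79a in vehicle was -4.29, and without vehicle replicate 3 that of H2-Eb1 was -3.98.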

How the results depend on the processing

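Of 200 refits of the 16 gate differences, 197 kept direction and call, 3 lost the call (Vpreb3 in vehicle and Pax5 in citrus, given above) and 0 changed direction. With each pool left out in turn, 7 to 8 genes were called lower in vehicle and 7 to 8 in citrus. With the filter on dim probe sets 4 were called in either stimulus, since it left only Cd79a, H2-Aa, H2-Ab1 and H2-Eb1 to test. With the pool as a block (for citrus against vehicle, the replicate number), 8 genes were called in either stimulus, and the block changed no call of these genes in any comparison. The bounds with a pool left out, given above, were an alternative chosen after seeing the data. A bound could not be computed where both gates lay under it.

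None of 388 refits of the citrus and interaction estimates made a call, and 31 changed sign. For citrus against vehicle in GFP- cells, array weights gave 0.33 for Cd79a and 0.17 for Cd79b, and with a pool left out Cd79a ranged from -0.64 to 0.74, Cd79b from -0.59 to 0.50, Ms4a1 from -0.10 to 0.46 and Vpreb3 from -0.32 to 0.79. In GFP+ cells Cd79b ranged from -0.31 to 0.14 and Pax5 from -0.15 to 0.10. For the interaction, array weights gave -0.0304 for Cd79a, median centring 0.0410 and quantile normalization 0.0689 for Cd79b, and with a pool left out Cd79a ranged from -0.47 to 0.98, Cd79b from -0.47 to 0.55, Vpreb3 from -1.36 to 0.0761 and H2-Ab1 from -0.49 to 0.0915. The cause was not tested. Signals under the background level limit what can be read for Cd79b, Ms4a1, Pax5 and Vpreb3.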
